A study of Mus musculus with 24 samples.

Results

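Afp, Gpc3, Golm1, Ly6d, Spink1, Tff3, Tspan8 and Igf2bp3 are genes used as markers of the fetal liver, of dysplastic liver or of liver tumours, and were followed here in mice fed a diet that injures the liver. They were chosen by gene symbol, and all 8 were found among the 56205 gene rows of the deposited count table. Of these 8, 7 had enough counts to be tested, and Igf2bp3 is given by its counts alone. RNA was measured in whole livers of C57BL/6J mice, a common inbred strain. The mice had 20 weeks on a diet deficient in methionine and choline (MCD, 12 libraries) or on its control diet (control, 12 libraries). The series' design has 6 animals of each sex on each diet. The sex of a single library is not labelled, so both groups mix the sexes. The study's methods describe the MCD diet as rich in fat, and its results name a high-fat, choline-deficient diet with defined amino acids. An age at the start of the MCD diet was not given in the sources used here. The labels name no transgene or drug in either group, and polyadenylated RNA was sequenced. Total counts ran from 16793207 to 24915175 per control library and from 16388650 to 24577848 per MCD library.

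Oncofetal genes are active in the fetal liver, are turned off soon after birth and can be switched on again in regenerating liver and in hepatocellular carcinoma. Afp encodes alpha-fetoprotein, the main plasma protein of the fetus, which gives way to albumin after birth, and Gpc3 encodes a glypican, a heparan sulfate proteoglycan of the cell surface. Igf2bp3 is a further oncofetal gene, and the others are known from tumours or injured epithelium. Golm1 encodes a Golgi membrane protein that is shed into serum, and Tspan8 a tetraspanin of digestive epithelia and their tumours.

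Of the 7 tested genes, 5 were higher in MCD livers (Afp, Golm1, Ly6d, Spink1 and Tspan8), none was lower, and Gpc3 and Tff3 did not pass the threshold. The threshold was an FDR of 0.01 or less with an absolute log2 fold change above 0.5 in edgeR's quasi-likelihood test, fitted over 14109 genes. At an unadjusted p under 0.05 in edgeR, and by DESeq2 at the same threshold, the count of lower genes among the 7 was also 0. Of all genes tested, 19.2% were higher by the same threshold and 38.3% changed in either direction. Over the 7 genes the median log2 fold change was 2.53, and over all tested genes it was -0.10. In 3 of the 7 (Golm1, Ly6d and Tspan8) every MCD library lay above every control library, a separation that 9.5% of all tested genes showed. In bulk liver, fewer cells of a type and less RNA per cell cannot be told apart. Nothing in the labels places animals in litters or cages, so p-values measure the spread between these libraries.

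**Figure D1:**
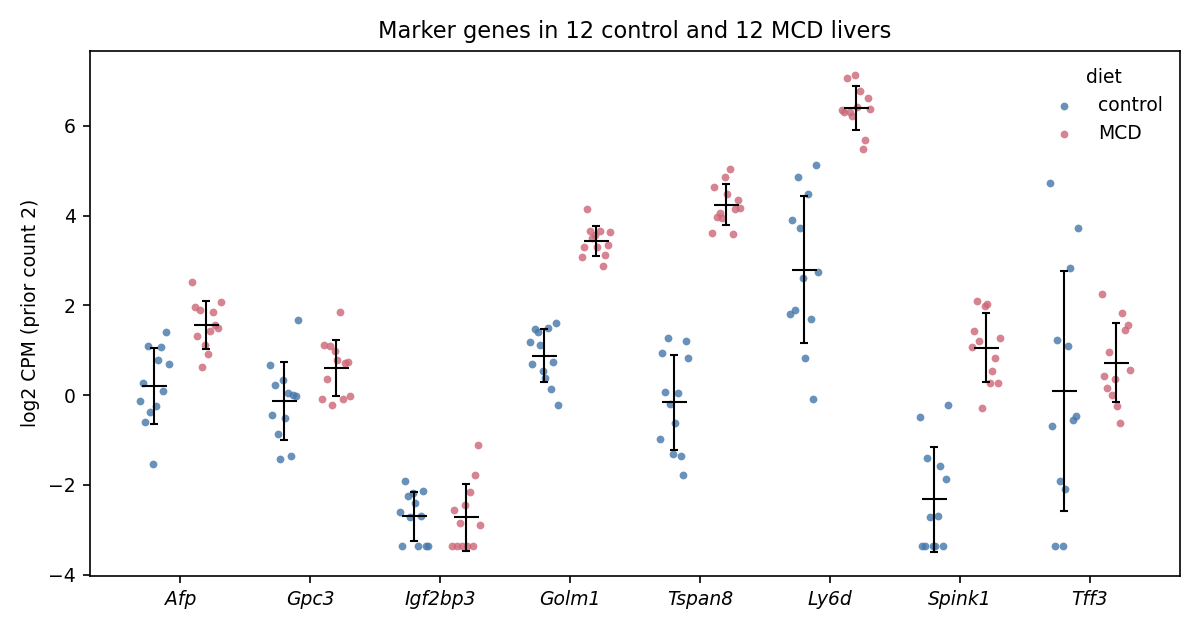
Level of each marker gene in every library, in log2 of depth-scaled counts (CPM) with a prior count of 2, for control (blue) and MCD (red) livers. Each point is 1 library, and black bars give the mean and SD of 12 libraries. The groups do not overlap for Golm1, Tspan8 and Ly6d, and the control libraries spread most widely for Tff3.

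The stretch before the start of 3 of these genes is shown first, because the genes differ in the kind of promoter they carry. Promoters were found in the RefSeq table (GRCm38.p6) for Afp, Golm1, Gpc3, Tspan8 and Igf2bp3, and the 250 bases before the RefSeq start are given for Afp, at chr5:90490464-90490713 on the plus strand, Golm1, at chr13:59675785-59676034 on the minus strand, and Gpc3, at chrX:52613975-52614224 on the minus strand. Capitals mark the letters of a TATA box (TATAAA), on either strand. In Afp the match was on the sense strand, and in Golm1 it was on the opposite strand, 185 to 180 bases before the RefSeq start.
Afp: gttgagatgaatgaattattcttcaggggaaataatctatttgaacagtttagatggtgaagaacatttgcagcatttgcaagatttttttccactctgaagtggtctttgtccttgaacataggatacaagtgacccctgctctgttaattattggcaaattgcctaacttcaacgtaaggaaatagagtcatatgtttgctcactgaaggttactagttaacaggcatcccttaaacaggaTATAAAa
Golm1: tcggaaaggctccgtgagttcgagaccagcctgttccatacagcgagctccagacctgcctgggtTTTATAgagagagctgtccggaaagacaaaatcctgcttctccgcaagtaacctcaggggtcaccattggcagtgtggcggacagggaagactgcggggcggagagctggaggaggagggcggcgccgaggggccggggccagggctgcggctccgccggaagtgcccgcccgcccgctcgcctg
Gpc3: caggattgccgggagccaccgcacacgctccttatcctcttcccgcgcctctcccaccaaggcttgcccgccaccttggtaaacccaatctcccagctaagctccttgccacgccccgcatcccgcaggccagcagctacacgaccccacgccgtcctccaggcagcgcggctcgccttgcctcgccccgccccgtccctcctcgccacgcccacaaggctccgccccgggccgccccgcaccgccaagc
The Afp stretch held 36.0% G and C with 1 CpG, against 65.6% with 20 CpGs for Golm1 and 71.6% with 25 CpGs for Gpc3. Over all 32851 promoters of this length the median was 52.4% with 6 CpGs. Igf2bp3 held 60.4% with 21 CpGs. The RefSeq start lay before the GENCODE start for Afp and Gpc3, 3 bases after it for Igf2bp3 and 27 bases after it for Golm1. The Tspan8 window began 202 bases after the GENCODE start, inside the gene by that annotation, and is not described as a promoter. Of the genes that rose, Afp had an AT-rich stretch and Golm1 a CpG-rich one.

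The TATA box of Afp ended 2 bases before the RefSeq start and began 30 bases before the start that GENCODE gives for the gene. A TATA box in either direction was present in 12.4% of all promoters. Afp also held the C/EBP letters TTNNGNAA on the opposite strand, and Igf2bp3 held them on the sense strand, while 36.8% of all promoters hold them on either strand. The AP-1 letters TGANTCA (6.75% of all promoters) and the TEAD letters GGAATG (12.6%) were searched on both strands and were not in the windows of Afp, Golm1, Gpc3 and Igf2bp3, and Gpc3 held none of the 4 motifs. These matches describe letters and are not evidence of binding.

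Afp (ENSMUSG00000054932, chromosome 5) was low in both diets and higher in MCD livers. Control libraries held from 4 to 57 reads of Afp, with a median of 17.5, and MCD libraries from 40 to 113, with a median of 67. After scaling for depth the level was 1.24 ± 0.704 CPM in control and 3.04 ± 1.16 CPM in MCD (SD, n = 12 each). In 8 of 12 MCD libraries Afp lay above every control library, and the other 4 overlapped the upper control libraries. The difference was 2.44-fold (log2 fold change 1.28, SE 0.28, edgeR quasi-likelihood FDR 0.000233).

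Albumin, the adult counterpart of alpha-fetoprotein and its neighbour in the same gene family, moved the other way. The family holds 4 genes, all tested, of which Afp rose, Alb and Afm (afamin) fell and Gc (the vitamin D binding protein) did not pass the fold limit. Alb fell by 0.62 on the log2 scale (SE 0.11, edgeR FDR 3.8e-05), and Afm fell by 1.08 (SE 0.13, edgeR FDR 1.34e-07). The fall of Alb lost its call when libraries were scaled by upper quartiles (-0.47) or by total counts alone (-0.24), while Afm was past the threshold under both. Per kilobase of transcript, Afp reached 1.48 CPM in MCD livers against 25508 CPM for Alb, so Afp mRNA was rare beside Alb mRNA in the same livers.

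The list of known regulators of the Afp gene held 14 genes, of which 13 were tested, 0 rose and 5 fell by edgeR, with a median log2 fold change of -0.49. At an unadjusted p under 0.05 in edgeR 3 were higher and 9 lower, and DESeq2 called 2 higher and 5 lower. By total counts alone 3 rose and 0 fell, and by upper quartiles 3 rose and 4 fell, so the direction of this list depends on the scaling of the libraries. With 1 library left out, 0 to 2 rose, with at least 1 in 15 of 24 such fits, and 4 to 7 fell. Zbtb20, a zinc finger protein that represses Afp in the adult liver, fell by 0.95 (SE 0.19, edgeR FDR 0.000106), and by total counts alone its value was -0.62 with an FDR of 0.0101. Cebpa, a hepatocyte factor that activates Afp and albumin, fell by 0.83 (SE 0.08, edgeR FDR 6.6e-10), and by total counts alone its value was -0.46, inside the fold limit. Those that fell also included, named after their values were seen, the hepatocyte factors Nr5a2 (-0.71) and Foxa1 (-0.57). Zhx2, a repressor of Afp, Gpc3 and H19 after birth, was at -0.28 and did not pass the fold limit.

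Gpc3 (ENSMUSG00000055653, chromosome X) did not pass the threshold. Control libraries held from 5 to 41 reads, with a median of 15, and MCD libraries from 17 to 82, with a median of 35. The level was 0.987 ± 0.759 CPM in control and 1.56 ± 0.773 CPM in MCD (SD, n = 12 each), and only 1 MCD library lay above every control library. The log2 fold change was 0.69 with a 95% interval from 0.03 to 1.35 (SE 0.32, edgeR FDR 0.0609). The call depended on control replicate 12 and on the scaling. That library had the highest control level of Gpc3, at 3.10 CPM, and the lowest TMM scaling factor of all libraries, at 0.642. Without it the log2 fold change was 1.01 and the edgeR FDR 0.00281, and with scaling by total counts alone it was 1.13 with an FDR of 0.00262.

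Gpc3 is 1 of 6 glypicans, coreceptors for Wnt, Hedgehog and growth factor signals. Of the 5 that were tested, 1 rose and 1 fell. Gpc2, known from developing neurons and neuroblastoma, rose by 2.05 on the log2 scale (SE 0.31, edgeR FDR 2.72e-06), from 0.303 to 1.29 CPM. Gpc6 fell by 1.50 (SE 0.35, edgeR FDR 0.000567). Between 0 and 3 glypicans rose under the alternative settings, and Gpc5 was not tested.

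Igf2bp3 (ENSMUSG00000029814, chromosome 6), an oncofetal protein that binds mRNA, was near the limit of detection in both diets. The control libraries had from 0 to 3 reads and MCD libraries from 0 to 7, with a median of 1 read in each group. Over each group the reads summed to 14 in control and 21 in MCD, and no test was made. All 12 control libraries and 10 of 12 MCD libraries held 3 reads or fewer, a level that cannot be told from 0 at this depth. Its relative Igf2bp2 was tested and was at -0.06 (SE 0.18, edgeR FDR 0.77), and Igf2bp1 held no more than 2 reads in any library. An exon of Igf2bp3 overlaps Malsu1 on the other strand, so even these few reads may not all be its own if strand was not used in counting.

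Among 17 other oncofetal and fetal liver genes, 7 were tested, of which 5 rose and 0 fell by edgeR, with a median log2 fold change of 1.55. DESeq2 also called 5 and 0, and at an unadjusted p under 0.05 in edgeR 6 were higher and 0 lower. Without the filter on low counts 6 rose and 1 fell. The 1 that fell was Cyp3a16, a cytochrome of the fetal liver with 9400 reads over the control group and 88 over the MCD group. Its control reads were uneven, with 6 control libraries at 3 reads or fewer and 6 above every MCD library. Cyp3a16 was named after its values were seen. Igdcc4, an immunoglobulin superfamily receptor, rose by 5.15 (SE 0.57, edgeR FDR 1.81e-08), from 0.256 ± 0.187 CPM to 9.29 ± 8.03 CPM (SD, n = 12 each). Cd24a, a surface protein of fetal and progenitor cells, rose by 3.09 (SE 0.20, edgeR FDR 1.93e-12), from 3.82 to 32.5 CPM. The other 3 that rose, named after their values were seen, were Hkdc1 (2.99), a hexokinase of fetal liver and tumours, the fetal growth factor gene Igf2 (1.41) and the chromatin protein gene Hmga1 (0.68). H19, an imprinted fetal RNA next to Igf2, was at 1.55 with an FDR of 0.0325 and did not pass. The 10 that were not tested include Lin28a, Lin28b, Dlk1 and Igf2bp1, and Lin28b had no read in any library.

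Golm1 (ENSMUSG00000021556, chromosome 13) separated the diets completely. Reads of Golm1 numbered from 10 to 66 in control libraries, with a median of 29, and in MCD libraries from 154 to 429, with a median of 268. The level was 1.88 ± 0.745 CPM in control and 10.9 ± 2.7 CPM in MCD (SD, n = 12 each). All 12 MCD libraries were above the highest control library, at 7.20 CPM or more against 2.96 CPM or less. The difference was 5.77-fold (log2 fold change 2.53, SE 0.19, edgeR FDR 1.92e-11). Golm1 had the smallest spread of the 7 tested genes within MCD livers, with a coefficient of variation of 24.6%.

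An exon of Golm1 overlaps Naa35 on the opposite strand, and the strand setting of the counting was not given in the sources used here. Naa35, a subunit of an acetyltransferase, was at 28.8 CPM in control and 22.9 CPM in MCD livers, with a log2 fold change of -0.33, opposite in sign to that of Golm1. The sister gene Golm2, listed under its older symbol Casc4, was at 0.18 (SE 0.16, edgeR FDR 0.335).

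Tspan8 (ENSMUSG00000034127, chromosome 10) had the highest fold of the set and ranked 43 of 14109 genes by log2 fold change. Control libraries held from 3 to 49 reads, with a median of 15, and MCD libraries from 242 to 769, with a median of 439.5. The level was 1.03 ± 0.767 CPM in control and 19.7 ± 6.43 CPM in MCD (SD, n = 12 each). The lowest MCD library, at 11.9 CPM, was above the highest control library, at 2.32 CPM. The difference was 18.7-fold (log2 fold change 4.22, SE 0.30, edgeR FDR 9.74e-12). A gene annotated on the opposite strand, 4930422I22Rik, had 0 reads in every library.

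Tetraspanins are membrane proteins that organise integrins and other receptors. Of 20 genes named Tspan with a number, 17 were tested, of which 8 rose and 2 fell, with a median log2 fold change of 0.16. After Tspan8 the largest rise was that of Tspan3, at 2.11 (SE 0.16, edgeR FDR 3.41e-11). Tspan12, which acts in Norrin and Wnt signalling, fell by 0.83 (SE 0.12, edgeR FDR 7.04e-07), and Tspan2 fell by 0.61 (SE 0.20, edgeR FDR 0.00844). By total counts alone neither of these 2 passed, at -0.48 and -0.28, and Tspan2 lost its call in 7 of 11 alternative settings and in 20 of the 24 fits that left out 1 library (-0.69 to -0.50 over the 24).

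Tspan8 is expressed in bile duct and gut epithelium, so markers of both were read beside it. Of 10 cholangiocyte markers, all tested, 8 rose, with a median log2 fold change of 3.15, and their summed level was 92.6 to 214 CPM in control and 531 to 1006 CPM in MCD livers. Spp1, which other cells also make, carried most of the MCD sum, and the other 9 markers summed to 66.3 to 115 CPM in control and 114 to 194 CPM in MCD livers. Of 10 intestinal markers 4 were tested, 1 rose and 1 fell, and Agr2 and Cdx2, which define gut epithelium, had 0 reads in every library. The 1 that rose was Vil1, a protein of microvilli, at 3.84 (edgeR FDR 1.03e-11), and of those not tested Krt20 had 3 reads over the control group and 44 over the MCD group, and Cdh17 had 4 and 23. These genes were named after their values were seen. The summed level of the intestinal list was 100 to 269 CPM in control and 71.4 to 129 CPM in MCD livers, and came mostly from Fabp2 (94.8 and 59.9 CPM on average), the 1 that fell (-0.66, edgeR FDR 0.00147), and Lgals4 (44.0 and 36.6 CPM). The call of Fabp2 was lost without control replicate 12, and the count of fallen intestinal markers was also 0 by upper quartiles, by total counts alone, with the replicate block and at a log2 limit of 1. The part of the cholangiocyte markers in the rise of Tspan8, or of any other gene of the set, was not tested.

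Ly6d (ENSMUSG00000034634, chromosome 15), a lipid-anchored surface protein known from keratinocytes and early B cells, was the most abundant gene of the set. It had from 13 to 773 reads in control libraries, with a median of 92.5, and in MCD libraries from 950 to 3263, with a median of 2096. The level was 11.6 ± 11.4 CPM in control and 88.2 ± 28.6 CPM in MCD (SD, n = 12 each). The groups did not overlap, with 34.6 CPM in the highest control library and 44.4 CPM in the lowest MCD library. The difference was 7.58-fold (log2 fold change 2.92, SE 0.44, edgeR FDR 2.16e-06). Control livers differed more among themselves than MCD livers did, with coefficients of variation of 98.5% and 32.5%.

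Of 18 genes of the LY6 family, small surface proteins held by a lipid anchor, 5 were tested and all 5 of those rose, with a median log2 fold change of 1.73. After Ly6d the largest rise was that of Ly6c2, a monocyte marker, at 1.97 (SE 0.26, edgeR FDR 2.57e-07). Near-identical copies in this family, such as Ly6c1 and Ly6c2, can share reads, so the split between them is uncertain. Of 10 B and plasma cell markers 8 were tested and 1 rose, with a median log2 fold change of 0.11 and a summed level of 363 to 566 CPM in control and 389 to 480 CPM in MCD livers. Of 10 squamous epithelium markers 1 was tested, at -0.48 and not past the threshold. The squamous markers summed to 0.205 to 5.91 CPM in control and 0.693 to 1.89 CPM in MCD livers, and Krt6a, Dsg3 and Ivl had 0 reads in every library. Of those not tested, Krt5 had 0 reads over the control group and 19 over the MCD group, and Trp63 had 3 and 56, and these were named after their values were seen. Without the filter on low counts 2 squamous markers were higher in MCD livers, and the part of this list in the rise of Ly6d was not tested.

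Spink1 (ENSMUSG00000024503, chromosome 18), an inhibitor of trypsin made in the pancreas and found in liver tumours, was nearly silent in control livers. Control libraries held from 0 to 10 reads, with a median of 1, and 7 of them held 3 or fewer. MCD libraries held from 20 to 103 reads, with a median of 47.5. In 11 of 12 MCD libraries the level lay above every control library, and the lowest MCD library, at 0.727 CPM, was just below the highest control library, at 0.757 CPM. The level was 0.182 ± 0.257 CPM in control and 2.26 ± 1.20 CPM in MCD (SD, n = 12 each), a 13.0-fold difference (log2 fold change 3.70, SE 0.49, edgeR FDR 3.74e-07). The whole control group held 34 reads of Spink1, so the size of the fold is uncertain, with a 95% interval from 2.68 to 4.73 on the log2 scale.

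Spink1 was the 1 gene of 13 in its family with enough reads to be tested, and 9 of the others had 0 reads in every library. The pancreatic acinar cell is its main source in the body, and acinar markers were read beside it. Of 10 such markers 2 were tested, and 0 passed the threshold by edgeR, 1 at an unadjusted p under 0.05 and 1 by DESeq2. Their summed level was 3.08 to 21.7 CPM in control and 4.09 to 8.90 CPM in MCD livers, and came mostly from Cela1. The digestive enzyme genes Cpa1, Pnlip, Amy2a5 and Prss2 held no more than 3 reads in any library, and Cpb1 held 0.

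Tff3 (ENSMUSG00000024029, chromosome 17), a trefoil peptide secreted with mucus, gave no single direction. Its reads spanned 0 to 387 in control libraries, with a median of 11.5, and in MCD libraries from 13 to 93, with a median of 35.5. The mean was lower in MCD livers, at 1.87 ± 1.26 CPM against 4.40 ± 7.95 CPM in control (SD, n = 12 each), but the median was higher, at 1.30 against 0.606 CPM. Of the 12 control libraries 3 lay above every MCD library (replicate 1 at 26.4 CPM, replicate 12 at 13.1 CPM and replicate 9 at 7.02 CPM), and 5 lay below every MCD library. On the log2 scale the SD was 2.67 in control and 0.885 in MCD livers.

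The fitted log2 fold change of Tff3 was -1.22 with a 95% interval from -2.72 to 0.27 (SE 0.72, edgeR FDR 0.142), and its sign depended on the method. It was -0.27 with DESeq2 (FDR 0.762), 1.04 with limma-voom (FDR 0.245) and 0.29 with the replicate number as a block (edgeR FDR 0.715), none past the threshold. Without control replicate 1 it was -0.29. The other trefoil genes, Tff1 and Tff2, were not tested, and Tff2 held from 0 to 4 reads in control and from 4 to 27 reads in MCD libraries.

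**Figure D2:**
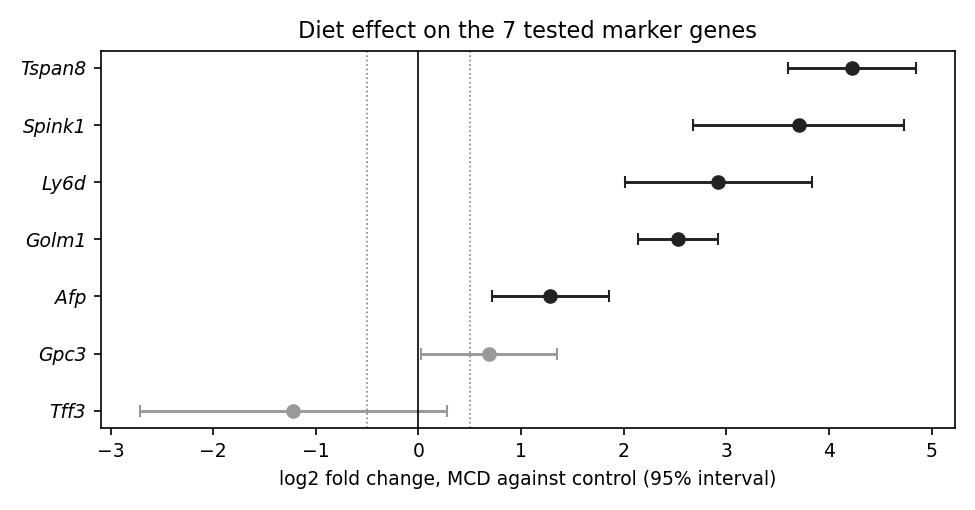
Log2 fold change of MCD against control livers for the 7 tested genes, from edgeR's quasi-likelihood fit over 12 libraries of each diet. Bars are 95% intervals, dotted lines mark the fold limit of 0.5, and black points passed the threshold while grey points did not. The intervals of Tspan8 (4.22) and Golm1 (2.53) do not overlap, and that of Tff3 spans 0.

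To compare levels between genes, CPM was divided by transcript length. In control livers the order of mean CPM per kilobase was Ly6d (15.6), Tff3 (8.93), Tspan8 (0.749), Afp (0.600), Golm1 (0.476), Gpc3 (0.445), Spink1 (0.249) and Igf2bp3 (0.0155). The ranges over libraries of all neighbours in this order overlapped. In MCD livers the order was Ly6d (119), Tspan8 (14.2), Tff3 (3.79), Spink1 (3.10), Golm1 (2.77), Afp (1.48), Gpc3 (0.705) and Igf2bp3 (0.0178). Ly6d, from 59.7 to 189 CPM per kilobase, stood clear of Tspan8, from 8.64 to 23.7, and Gpc3, at 0.344 or more, stood clear of Igf2bp3, at 0.0846 or less. The other neighbours overlapped. Tspan8 moved from the third to the second place and Spink1 from the seventh to the fourth.

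Whether the marker genes varied together from liver to liver was examined within each diet, over 21 pairs of genes and both diets, 42 relations in all. Of these, 4 passed an adjusted permutation p of 0.05 by Pearson's r, and none kept it when the 2 libraries farthest from the median of the first gene were left out. Spink1 and Tff3 correlated in control livers (r = 0.88, permutation p = 0.00032, adjusted p = 0.0134, rho = 0.90 with permutation p = 0.0002 and adjusted p = 0.0084, n = 12). In 5 of those control libraries Spink1 had no read at all, without the 2 libraries r was 0.75 (permutation p = 0.0147, adjusted p = 0.309, 10 libraries left), and in MCD livers r was -0.18 (permutation p = 0.568, adjusted p = 0.769). Control replicates 1, 9 and 12, highest for Tff3, held 14.7, 11.3 and 21.7 CPM of the acinar list, and control replicate 10, with 16.8 CPM of it, held 0.586 CPM of Tff3. Without Cela1 the other 9 acinar markers summed to 0.0896 to 0.849 CPM over the control libraries, and the part of this list in the relation was not tested.

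Gpc3 and Tspan8 correlated in MCD livers (r = 0.84, permutation p = 0.00076, adjusted p = 0.016, rho = 0.83 with permutation p = 0.00122 and adjusted p = 0.0209, n = 12). Without the 2 farthest libraries r was 0.77 (permutation p = 0.00995, adjusted p = 0.309), and in control livers r was 0.09 (permutation p = 0.788, adjusted p = 0.848). Ly6d and Tspan8 correlated in control livers (r = 0.79, permutation p = 0.003, adjusted p = 0.042, rho = 0.83 with permutation p = 0.00149 and adjusted p = 0.0209, n = 12), and without the 2 farthest libraries r was 0.66 (permutation p = 0.042, adjusted p = 0.49). In MCD livers r of this pair was 0.55 (permutation p = 0.0632, adjusted p = 0.295).

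Golm1 and Ly6d correlated in MCD livers (r = 0.76, permutation p = 0.00467, adjusted p = 0.049, n = 12), but not by rank (rho = 0.66, permutation p = 0.0236, adjusted p = 0.165). Without the 2 farthest libraries r was 0.51 (permutation p = 0.138, adjusted p = 0.53). Afp and Gpc3, both classical oncofetal genes, gave r = -0.13 in control and -0.12 in MCD livers (permutation p = 0.683 and 0.700, adjusted p = 0.795 for both, n = 12 each). With a score of sex-linked transcripts (Xist minus the mean of Ddx3y, Eif2s3y, Kdm5d and Uty, on the log2 scale) removed, Golm1 and Ly6d in MCD livers had r = 0.62 (permutation p = 0.0309, adjusted p = 0.206), and Afp and Tspan8 in control livers went from r = 0.51 (permutation p = 0.0923, adjusted p = 0.323) to r = 0.77 (permutation p = 0.00287, adjusted p = 0.0301). The other 3 pairs stayed past an adjusted permutation p of 0.05. Whether a correlation differed between the diets was not tested.

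**Figure D3:**
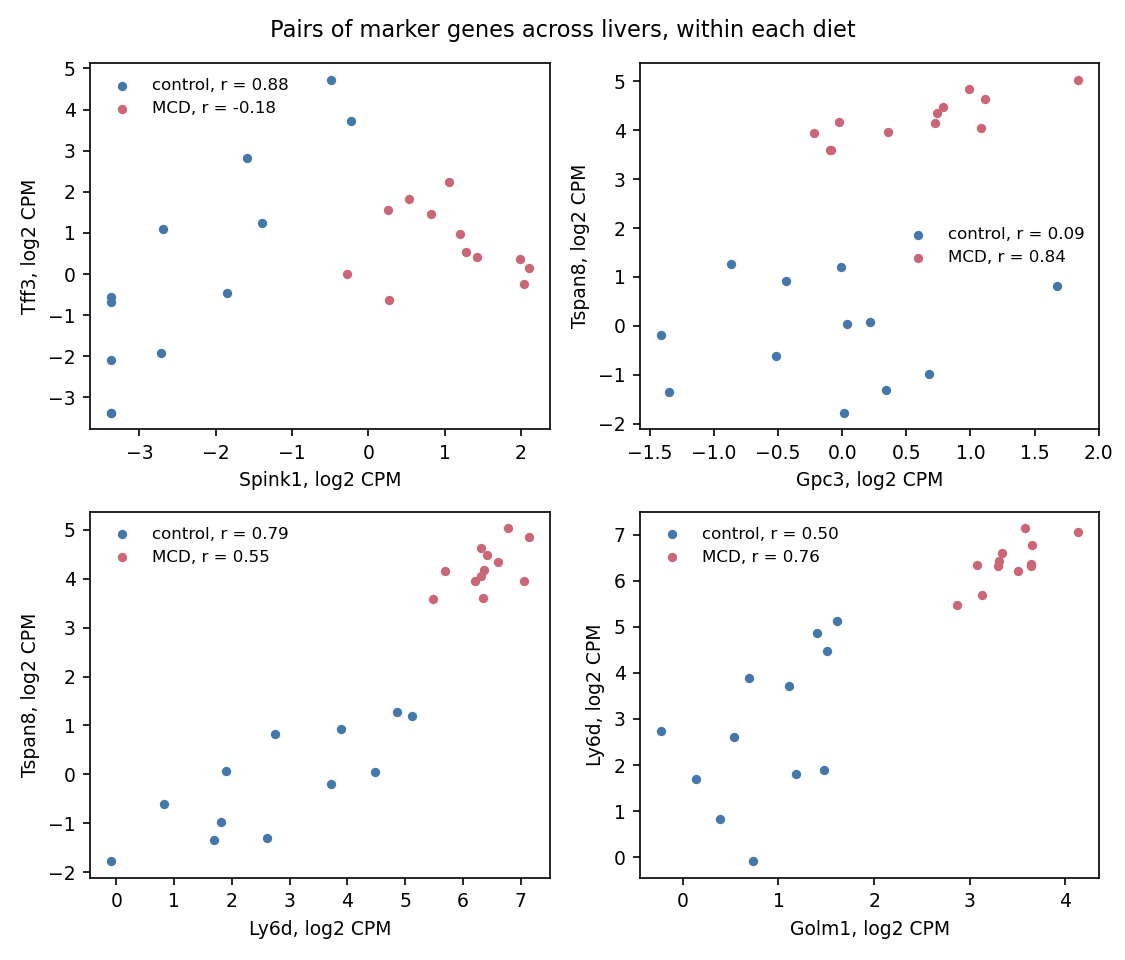
Levels of 4 pairs of marker genes in each library, in log2 CPM on both axes, with control livers in blue and MCD livers in red (12 points each, some overlapping). Spink1 against Tff3 shows the control libraries with no Spink1 read at the left edge, and Gpc3 against Tspan8 shows a slope within MCD livers (r = 0.84).

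The genes whose residual pattern was most like that of each marker were found over 24 libraries after removing the diet means, as a description. For Tspan8 these were Ace (r = 0.91), Spint1 (0.91) and Kcne3 (0.90), and all of these had higher fitted levels in MCD livers, with log2 fold changes of 2.43, 3.43 and 3.22. For Ly6d they were Tpm1 (0.90), Fam83a (0.89) and Ttc39a (0.86), and for Golm1 Pdzd2 (0.84), C2cd5 (0.81) and Dcbld2 (0.80). Tff3 was most like Fkbp11 (0.85), Gm20390 (0.85) and Slc25a33 (0.85), and Spink1 like Nans (0.80), Srprb (0.75) and Pnpla7 (0.75). Afp was most like Treh (0.79), Tes (0.76) and Ercc3 (0.75), and Gpc3 like Upk3b (0.76), BC034090 (0.75) and Manbal (0.75). Outside Tspan8, the genes named here did not all share the direction of their marker between the diets. Pdzd2 (-0.47), Pnpla7 (-0.36) and Upk3b (-0.27) had log2 fold changes below 0, none past the threshold. The rest were above 0, from 0.09 for Srprb to 3.66 for Fam83a, and not all passed. They included the genes most like Tff3, itself at -1.22. The values of r within each diet differed, and except for Ercc3 and Manbal they were higher in control livers for every gene named here. For Ly6d they were 0.96 in control and 0.51 in MCD for Tpm1, 0.91 and 0.71 for Fam83a, and 0.91 and -0.08 for Ttc39a. The libraries share depth and scaling, and these were the highest of 13103 genes compared.

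The list of other liver tumour and progenitor genes held 20 genes, of which 18 were tested, 13 rose and 2 fell, with a median log2 fold change of 1.86. Among those that rose, Epcam, Krt19, Sox9 and Spp1 are also counted in the cholangiocyte list. Lcn2, an iron-binding protein of injury and inflammation, rose by 3.82 (SE 0.35, edgeR FDR 6.49e-10), and Epcam, an adhesion protein of bile duct and progenitor cells, rose by 3.67 (SE 0.22, edgeR FDR 1.14e-12). Robo1, an axon guidance receptor, fell by 1.39 (SE 0.29, edgeR FDR 0.000175), and Tert, the catalytic subunit of telomerase, fell by 1.24 (SE 0.21, edgeR FDR 1.08e-05). Of 10 proliferation markers 9 were tested and 7 rose, with a summed level of 29.0 to 60.2 CPM in control and 67.9 to 87.9 CPM in MCD livers.

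**Figure D4:**
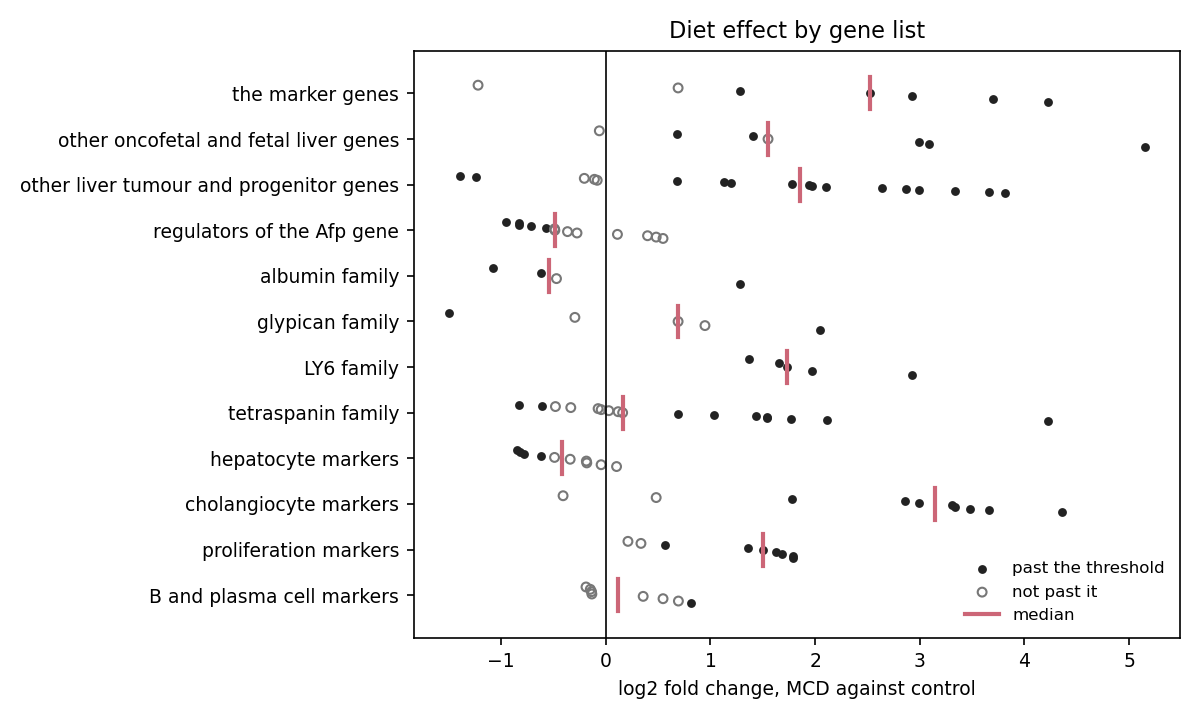
Log2 fold change of MCD against control livers for every tested gene of each list, filled where it passed the threshold and open where it did not, with the median of the list as a red line. The marker genes have a median of 2.53, the cholangiocyte markers 3.15 and the regulators of Afp -0.49.

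The labelled tissue was checked by hepatocyte markers, which summed to 86819 to 198402 CPM in control and 65586 to 92236 CPM in MCD livers. Of those 10 markers 4 fell, with a median log2 fold change of -0.42, and by total counts alone 0 fell. Mesenchymal markers (9 of 10 rose and 1 fell, median 1.78), macrophage markers (8 rose and 2 fell of 10, median 2.42) and erythroid markers (6 of 7 tested fell, median -1.36) moved as well, and their part in the values of the marker genes was not tested.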

How the data were processed

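Whole liver polyadenylated RNA was sequenced, and the authors deposited 1 table of raw counts per Ensembl gene for 24 libraries. The submitters' processing notes name bcl2fastq, STAR 2.7.3a and mm10 (GRCm38). The counting program, annotation release and strand setting for these mouse libraries were not given in the sources used here, and 2122 gene identifiers belong to a later annotation. Symbols, positions and transcript lengths came from GENCODE release M21 and RefSeq (GRCm38.p6), and rows without a symbol held 0.0808% of counts.

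Libraries were grouped by the labelled diet. Genes were filtered with filterByExpr, scaled with TMM factors and tested with edgeR 4.0.16 (quasi-likelihood, R 4.3.3), with Benjamini-Hochberg adjustment over 14109 genes. Levels are TMM-scaled CPM, and a prior count of 2 was used on the log2 scale. The biological coefficient of variation was 26.8%. DESeq2 1.42.0 and limma 3.58.1 served as alternatives. Pairs of genes were compared by two-sided permutation tests with 100000 resamples. The scripts were tested on simulated data. A score of sex-linked transcripts (Xist minus the mean of Ddx3y, Eif2s3y, Kdm5d and Uty) served only as a numeric covariate.

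Genes named by rule were all 8 markers, the 2 largest rises and falls past the threshold in each family or pathway list, and the 3 genes most like each marker. Further genes were named outside these rules, such as relatives of a marker, genes with few or no reads and genes that led a sum. Of the cell marker lists, counts were given with a median, a summed level or both, and some single genes were named with their values. The value of 1 gene and the matches of 1 motif are not reported here. The genes and lists were chosen with earlier results of these data known. Read counts have no molecular identifiers, so floors of 3 reads cover counting error only.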

Additional observations from a re-analysis of the deposited data

How the results depend on the processing

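The rises of Afp, Golm1, Ly6d, Spink1 and Tspan8 kept their direction and stayed past the threshold under every alternative in which they were tested. Their log2 fold changes ran from 1.17 to 1.63 for Afp, 2.46 to 2.86 for Golm1, 2.80 to 3.58 for Ly6d, 3.56 to 4.31 for Spink1 and 4.12 to 4.59 for Tspan8. With at least 10 counts required in every library, 11717 genes were tested and 2 marker genes rose, because only Golm1 and Ly6d were then tested. Gpc3 passed with scaling by total counts alone (1.13) and ranged from 0.56 to 1.01 with 1 library left out. Leaving out 1 library gave 5 to 6 marker genes that rose. Tff3 turned to 1.04 with limma-voom and to 0.29 with the replicate block, and ranged from -1.43 to -0.29 with 1 library left out. The cause was not tested.

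The median of all genes shifted by 0.37 on the log2 scale with total counts alone, by 0.15 with upper quartiles and by 0.12 without the filter on low counts. Over all genes, 4539 were higher by total counts alone and 1801 with at least 10 counts in every library, against 2712. Lower genes numbered 848 by total counts alone, 1710 by upper quartiles, 5221 when an FDR of 0.05 alone was required and 686 at a log2 limit of 1, against 2688. By total counts alone the calls were mostly of higher genes, and by the TMM scaling 2712 were higher and 2688 lower. Of 12 same-numbered pairs of libraries 8 correlated above 0.1 (from -0.28 to 0.35), with a median of 0.23 against -0.06 for different numbers, and 3 of 24 libraries correlated best with their own number. The labels do not say what a number marks and not every pair was above 0.1, so the numbers were not taken as pairs. The block changed no call among the marker genes.

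Depth limits Igf2bp3 and the control level of Spink1, at 14 and 34 reads over 12 control libraries.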

Other observations

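Of the marker genes, Tff3 alone passed an FDR of 0.01 for a relation with the score of sex-linked transcripts. The score ran from -8.07 to 12.5 in control and from -7.24 to 11.1 in MCD libraries. Per unit of the score, with diet in the same edgeR quasi-likelihood fit over 14109 genes, the log2 level changed by -0.146 for Tff3 (SE 0.035, FDR 0.00803) and by -0.043 for Afp (SE 0.013, FDR 0.0356). Afp did not pass that limit, and for the other 5 tested markers the FDR was 0.438 or more. In that fit the log2 fold change of diet was 1.30 for Afp and -0.57 for Tff3.

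Cyp3a16 did not pass the filter on low counts and held from 0 to 5251 reads in control livers and from 0 to 18 reads in MCD livers. Igdcc4 varied widely among MCD livers, from 44 to 589 reads, with 0 to 9 reads in control livers. H19 overlapped between diets, with 4 to 579 reads in control and 43 to 890 reads in MCD livers. Cyp3a16 and H19 were chosen here after their values were seen.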
